A study of Chlamydomonas reinhardtii with 45 samples.

Results

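The libraries described here are the 3 collected from the medium light (ML) population of *Chlamydomonas reinhardtii* at the +6 timepoint and the 3 collected at the +2 timepoint, 6 of the 45 libraries in the series. They were chosen by their population and timepoint labels alone. Timepoints are hours after the start of the light phase, and the labels call +6 the afternoon and +2 the morning. All 6 libraries are poly(A) RNA from strain CC-5390, labelled WT. By the methods of the study it is a cell-wall mutant line (*cw*15) rescued with the *ARG7* gene, so a single laboratory line stands for the species. The cells grew in photobioreactors in a medium without organic carbon, at 200 µmol photons m−2 s−1 during a 12 h light phase at 28 °C and in darkness at 18 °C, for at least 2 weeks before sampling. Both timepoints fall in the light, at the same light intensity and temperature and 4 h apart, so the comparison asks which mRNAs change within the day, without a light-to-dark or temperature step between the samples. The 3 replicates were independent cultures grown in different weeks, and libraries of the 2 timepoints may share cultures. The other populations of the series, of the same line, were kept at 50 (low light, LL) and 1000 (high light, HL) µmol photons m−2 s−1, LL for at least 1 week after growth in ML. They were used to see where the ML change differed. Their libraries also entered the filter on FPKM and the estimate of spread behind the ML tests.

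*Chlamydomonas* is a unicellular green alga that grows by photosynthesis and, under light-dark cycles, keeps its life in step with the day. Cells enlarge during the light phase and divide around nightfall by multiple fission, a quick succession of DNA replication and division rounds. Many mRNAs for chloroplast protein synthesis, pigments, and photosynthetic complexes peak in the first part of the day. Those for DNA replication and the rebuilding of cilia peak at other times. A chloroplast with its own bacterial-type ribosomes fills much of the cell, and many proteins of those ribosomes are encoded by nuclear genes, the kind measured here.

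Values are FPKM, fragments scaled to transcript length and to the mapped fragments of the library, for 17609 nuclear genes, so each value is relative to the total of its library. In bulk RNA, fewer cells in a given state and less mRNA per cell cannot be told apart. The depth behind each library is known only in relative terms: against +2 replicate 1 it was 0.784 to 1.25 in the +6 libraries and 0.927 to 1.49 in the +2 libraries. Between 15018 and 15478 genes had a value above 0 in the +6 libraries, against 15058 to 15350 in the +2 libraries. FPKM summed to 684879 to 735034 in the +6 libraries, against 848716 to 866130 in the +2 libraries, and the 10 most abundant mRNAs held 11.5% to 11.9% of it at +6, against 9.41% to 9.81% at +2. Pearson's *r* between replicates, across genes, was 0.996 to 0.999 at +6 and 0.998 to 0.999 at +2. Replicate 3 at +6 lay above both other +6 libraries in several sulfur-nutrition mRNAs, and replicate 2 at +2 lay above both other +2 libraries in several copper- and zinc-nutrition mRNAs. Results that rest on these are given with and without that library.

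Of the 14602 mRNAs that reached an FPKM of 1 in 3 or more libraries of the series, 2227 (15.3%) were significantly increased at +6 relative to +2 and 2115 (14.5%) were significantly decreased, 29.7% in either direction. A change was called when the log2 fold change of FPKM + 1 was above 1 in absolute value and the Benjamini-Hochberg adjusted *p* of limma was below 0.01. The added 1 shrinks the fold changes of scarce mRNAs. The increased mRNAs together held 20.7% of all FPKM at +6, against 4.18% at +2, and the decreased mRNAs held 8.87% at +6, against 27.3% at +2. An increased mRNA had a median FPKM of 11.1 at +6 and 1.84 at +2, while a decreased mRNA had a median of 4.81 at +6 and 22.5 at +2. The changes were often large. A log2 fold change beyond 2 was found for 752 increased and 717 decreased mRNAs, and one beyond 3 for 263 and 231. The median over all tested mRNAs was 0.01. Because FPKM is relative to each library's total, this median cannot show whether mRNA as a whole rose or fell. In 2219 of the 2227 increased and 2108 of the 2115 decreased mRNAs the +6 and +2 libraries did not overlap at all, which held for 72.2% of all tested mRNAs, 36.5% with +6 above and 35.7% with +6 below.

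**Figure D1:**
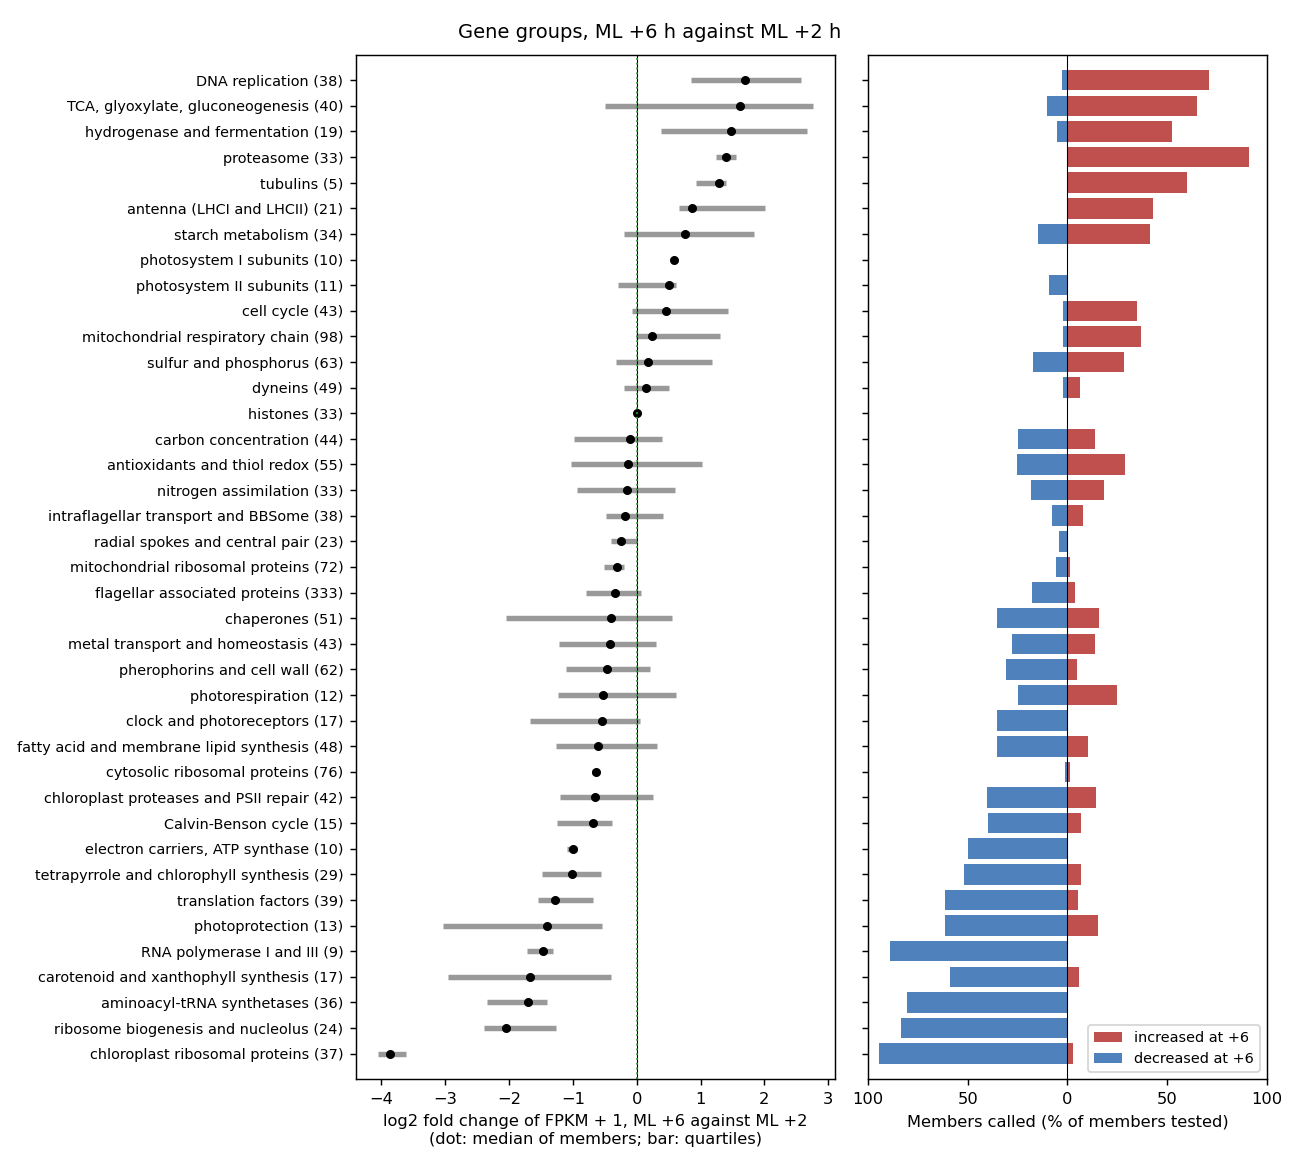
For each of the 39 gene lists, the left panel gives the median (point) and the quartiles (bar) of the log2 fold change of FPKM + 1 at +6 relative to +2 in the ML population, and the right panel the percentage of tested members called increased (red) or decreased (blue). The number of members tested stands in parentheses, and the dotted line marks the median of 0.01 over all tested mRNAs. Chloroplast ribosomal proteins have the lowest median, −3.86, and DNA replication genes the highest, 1.69.

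The largest increase was that of an mRNA without symbol or description, *Cre08.g382950*. Its FPKM was 304, 322, and 322 in the +6 libraries, against 1.42, 0.739, and 1.36 in the +2 libraries, a log2 fold change of 7.21 ± 0.15 (SE, n = 3 libraries per timepoint, limma adjusted *p* = 7.49e-29). Unless another fit is named, the SE and *p* of limma use a spread per gene estimated over all 45 libraries. Of the 15 largest increases, 9 carried neither a symbol nor a description in the files, where 6363 of all 17609 genes have a description. A symbol was present for 29.9% of all increased mRNAs, against 39.2% of the decreased ones and 27.8% of all tested mRNAs. One of the 9, *Cre14.g626300*, had 40.9, 29.8, and 42.5 FPKM at +6 and was listed at 0 in each +2 library. Others varied between replicates, such as *Cre16.g801969*, with 275, 78.6, and 101 FPKM at +6 and 1.37, 0.306, and 0 at +2. Among the mRNAs with a symbol, *NSG1*, named for nitrogen starvation and gametogenesis, had the largest increase, with 399, 369, and 241 FPKM at +6, against 3.10, 1.74, and 3.35 at +2 (log2 fold change 6.49). *SBD1*, a selenium-binding protein, came next at 5.88. *PSRP1*, *RTN1*, *ZYS4*, *ALDH2*, *RECA1*, *NTR2*, and *NFO2* followed, with log2 fold changes from 5.05 to 5.38. These encode a plastid ribosome-associated protein, a reticulon-related protein, a zygote-specific protein, an aldehyde dehydrogenase, a chloroplast recombination protein, a thioredoxin reductase, and an NADH:flavin oxidoreductase. At the other end, *Cre08.g800886* had 0.852, 0.324, and 0.267 FPKM at +6, against 71.8, 47.5, and 64.8 at +2 (log2 fold change −5.40), again an mRNA without annotation. The decreased mRNAs with a symbol had plainer identities: the 10 with the largest decreases encoded 3 chloroplast chaperonin subunits, 4 chloroplast ribosomal proteins, a chloroplast elongation factor, a pentatricopeptide repeat protein, and a carotenoid hydroxylase.

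Chloroplast ribosomal proteins changed together. Of the 37 mRNAs for chloroplast ribosomal proteins, 35 fell, 1 rose, and 1 did not pass the thresholds, with a median log2 fold change of −3.86. Their summed FPKM was 3046, 2795, and 3987 in the +6 libraries, against 40760, 40470, and 42017 in the +2 libraries, so the sum over these nuclear genes stood at 0.0797 of its +2 level. The quartiles of the single changes were −4.06 and −3.61, and with quantile normalization the median was −3.14 and the counts were the same. *PRPS6* (Cre12.g520600), for a protein of the small subunit, had 32.5, 32.5, and 47.7 FPKM at +6, against 795, 799.8, and 806 at +2. Its log2 fold change was −4.40 ± 0.15 (adjusted *p* = 6.89e-24). *PRPL22* and *PRPL11* of the large subunit behaved alike, with log2 fold changes of −4.36 and −4.27. The member that did not pass, *PSRP4*, had a log2 fold change of −0.76. The single increase was *PSRP1* (Cre05.g237450), whose product is related to bacterial ribosome-hibernation factors and in spinach binds the plastid ribosome without being one of its core proteins. Its FPKM was 127, 145, and 139 at +6, against 1.32, 4.0, and 2.12 at +2 (log2 fold change 5.38 ± 0.17). The timepoints did not overlap in either gene, which held for 72.2% of all tested mRNAs. Factors that act on these ribosomes fell too. *EFG12*, a TypA-type GTPase predicted for the chloroplast, had 8.53, 7.60, and 7.11 FPKM at +6, against 189, 180, and 189 at +2. *EFG1*, the chloroplast elongation factor G, had 93.1, 80.8, and 119.8 FPKM at +6, against 917, 900.2, and 884 at +2. Among all 39 translation factor mRNAs, 24 fell and 2 rose, with a median of −1.29. The 2 increases were *EFG6*, a putative organellar elongation factor, at 2.01 and *EFT2*, described as Ts-like, at 1.11. The call of *EFT2* was lost with a pseudocount of 0.01 (limma adjusted *p* = 0.0812).

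Of the aminoacyl-tRNA synthetases, which load amino acids onto tRNAs, 29 of 36 fell and none rose by the thresholds (limma; all 36 log2 fold changes were below 0), with a median of −1.71. The largest decreases belonged to enzymes annotated as organellar. *TSK2*, for lysine, had 3.36, 1.73, and 1.66 FPKM at +6, against 40.6, 40.9, and 43.3 at +2. *PRORS1* and *TSD1*, the enzyme for aspartate, changed by −3.20 and −3.08. Of the chaperones, 18 of the 51 tested fell and 8 rose, with a median of −0.40, and 7 further members were below the minimum. The share that rose was near the 15.3% of all tested mRNAs. The 3 largest decreases were the subunits of the chloroplast chaperonin 60, a folding chamber whose best-known client is Rubisco. *CPN60A* (Cre04.g231222) had 13.4, 11.3, and 15.1 FPKM at +6, against 488, 508, and 484 at +2, a log2 fold change of −5.12 ± 0.12 (adjusted *p* = 1.42e-27). *CPN60B2* and *CPN60B1* changed by −5.22 and −4.69. Among the increases, *CLPB1*, a disaggregase of the Hsp100 family, had 6.82, 7.39, and 4.60 FPKM at +6, against 0.213, 0.223, and 0.230 at +2. *CDJ4*, a chloroplast DnaJ-like protein, rose by 2.26 and *CCT7*, a subunit of the cytosolic chaperonin, by 1.25.

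The cytosolic ribosome had smaller fold changes. Only 1 of its 76 protein mRNAs fell by the thresholds and 1 rose, although 75 of the 76 log2 fold changes were below 0, with a median of −0.64. Summed FPKM was 171993, 165658, and 177901 in the +6 libraries, against 266612, 261649, and 275206 in the +2 libraries, so these mRNAs made up the largest sum of any list at both timepoints. *RPLP1*, an acidic stalk protein and one of the most abundant, had 6830, 6491, and 7222 FPKM at +6, against 10105, 9726, and 11712 at +2, a log2 fold change of −0.61 that was below the fold threshold. The decrease was that of *RPL7AE*, with 369, 351, and 352 FPKM at +6 and 1592, 1559, and 1720 at +2. The increase was that of *RPS27E2*, annotated as the B isoform of S27, with 83.2, 94.5, and 73.8 FPKM at +6 and 8.70, 18.7, and 10.3 at +2. Most mitochondrial ribosomal proteins did not pass the thresholds either, with 4 of 72 decreased, 1 increased, and a median of −0.30. The largest of these decreases, *MRPL10* at −3.71 and *MRPL6* at −3.47, belong to genes whose description names the mitochondrial and chloroplast ribosome together. *MRPL14* was listed at 0 in each +6 library, against 1.48, 1.49, and 1.60 FPKM at +2.

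The machinery that builds cytosolic ribosomes fell. Of 24 ribosome biogenesis and nucleolar mRNAs, 20 fell and none rose by the thresholds of limma, with a median of −2.05. At an unadjusted *p* below 0.05, 22 were lower and 1 was higher. Their summed FPKM was 495, 407, and 375 in the +6 libraries, against 2222, 2144, and 2429 in the +2 libraries. *NOP56* (Cre12.g525200), a core protein of the C/D snoRNPs that guide rRNA methylation, had 48.0, 46.1, and 35.1 FPKM at +6, against 316, 308, and 352 at +2 (log2 fold change −2.90 ± 0.12, adjusted *p* = 1.29e-21). *BRIX1*, needed for large-subunit maturation in yeast, had 5.82, 3.46, and 3.06 FPKM at +6, against 38.8, 40.5, and 48.6 at +2, and *NOP52* changed by −2.82. RNA polymerases I and III transcribe rRNA and tRNA genes. Of the 9 subunit mRNAs tested (1 further member was below the minimum), 8 fell, with a median of −1.47. *RPA12* had 3.52, 7.71, and 3.87 FPKM at +6, against 65.2, 57.0, and 74.5 at +2, and *RPA1*, the largest subunit of polymerase I, had 7.70, 6.96, and 4.82 FPKM at +6, against 37.4, 37.3, and 40.03 at +2.

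**Figure D2:**
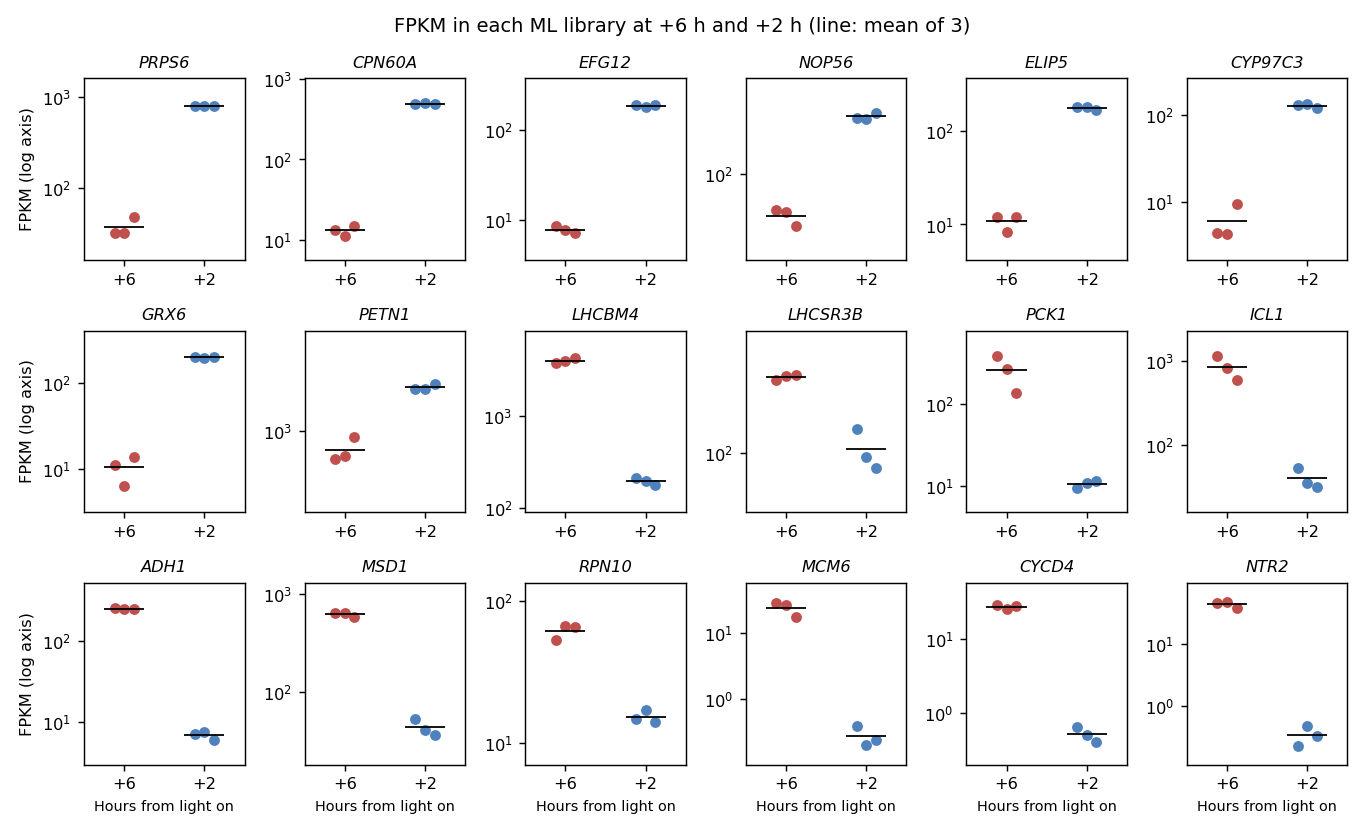
FPKM on a log axis in each ML library for 18 genes, with the 3 libraries at +6 left of the 3 libraries at +2 and a line at the mean of each timepoint. In *PRPS6*, *CPN60A*, *EFG12*, and *NOP56* every +6 library lies below every +2 library, and in *LHCBM4*, *PCK1*, *ADH1*, *RPN10*, *MCM6*, and *NTR2* every +6 library lies above.

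The proteasome, the large protease that degrades ubiquitin-tagged proteins, moved the opposite way. Of its 33 subunit mRNAs, 30 rose and none fell by the thresholds (limma; all 33 log2 fold changes were above 0), with a median of 1.40. Summed FPKM was 2246, 2589, and 2368 in the +6 libraries, against 869, 970.1, and 945 in the +2 libraries. *RPN10*, a ubiquitin receptor of the regulatory particle, had 53.1, 66.2, and 64.9 FPKM at +6, against 14.8, 17.0, and 14.1 at +2 (log2 fold change 1.94 ± 0.11, adjusted *p* = 4.2e-17). The core-particle subunits *POA5* and *PBA2* rose by 1.82 and 1.77. *CDC48*, an unfoldase that delivers substrates to the proteasome, had 153, 164, and 135 FPKM at +6, against 23.7, 28.2, and 25.4 at +2. Proteases of the chloroplast and of photosystem II repair did not share this course. Of 42 tested, 17 fell and 6 rose, with a median of −0.66, the increases being near the 15.3% of all tested mRNAs. *DEG9* fell to 3.67, 3.90, and 2.53 FPKM at +6, against 32.1, 30.5, and 32.6 at +2, and *FTSHI4*, an FtsH-like ATPase of chloroplast import, changed by −1.92. The increases included *CLPD1*, a ClpD chaperone at 3.28, *DEG1A* at 2.36, and *CLPP2*, which belongs to the mitochondrial ClpXP protease, at 2.21. With quantile normalization, which gives all libraries the same distribution, 8 of the 42 fell.

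Photosynthetic mRNAs did not form a single group. Light-harvesting antenna proteins bind most of the chlorophyll of the cell, and their mRNAs were all higher at +6. Of 21, 9 rose by the thresholds and none fell, all 21 log2 fold changes were between 0.46 and 5.02, and the median was 0.87. Summed FPKM was 75914, 74251, and 84959 in the +6 libraries, against 30843, 31352, and 30765 in the +2 libraries. *LHCBM1*, for a major protein of the trimeric LHCII antenna, had 15014, 14340, and 15840 FPKM at +6, against 4167, 4200, and 4103 at +2. *LHCBM4* (Cre06.g283950) rose most among the antenna mRNAs whose replicates were close to each other, with 3775, 3987, and 4218 FPKM at +6, against 211, 195, and 178 at +2 (log2 fold change 4.35 ± 0.22, adjusted *p* = 7.94e-19). *LHCBM5*, for an antenna protein involved in state transitions, changed by 3.75, *LHCBM7* by 2.49, and *LHCBM3* by 1.89. *LHCBM9*, known from sulfur-starved *Chlamydomonas*, had 72.8, 79.3, and 729.8 FPKM at +6, against 5.50, 2.69, and 4.32 at +2. Its log2 fold change was 5.02 with all libraries and 3.94 without +6 replicate 3. Members of the *LHCBM* family, above all *LHCBM2* and *LHCBM7*, are near-identical, so fragments could have been divided between them and single values are uncertain.

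The subunits of the photosystems mostly lay within the fold threshold. Photosystem I subunits had 10 of 10 log2 fold changes between 0.45 and 0.85, none past the threshold, as in *PSAD1* with 3798, 3685, and 3996 FPKM at +6 and 2482, 2468, and 2485 at +2. The +6 and +2 libraries did not overlap in any of the 10, which held for 72.2% of all tested mRNAs. Photosystem II had 11 subunits, with 8 changes above 0 and the single call a decrease, that of *PSB28*, an assembly factor, with 99.9, 101, and 110.4 FPKM at +6 and 312, 316, and 305 at +2. The abundant *PSBR1* and the oxygen-evolving complex gene *PSBO1* had log2 fold changes of 0.62 and 0.65. Electron carriers and the chloroplast ATP synthase lay on the other side, with 5 of 10 decreased, none increased by the thresholds of limma, and a median of −0.99. At an unadjusted *p* below 0.05, 9 were lower and 1 was higher. *FDX1*, the chief ferredoxin of photosynthesis, had 1758, 1680, and 2293 FPKM at +6, against 3935, 4085, and 4080 at +2. *FNR1*, which passes its electrons to NADP, had 806, 771, and 1023 FPKM at +6, against 1888, 1967, and 1918 at +2, and *PETN1* of the cytochrome b6f complex changed by −1.21. These calls lie near the threshold and depend on how libraries are scaled. With quantile normalization 18 antenna, 5 photosystem I, and 4 photosystem II mRNAs were increased and none of the electron carriers was decreased, with medians of 1.41, 1.04, 0.71, and −0.59, so the directions stayed and the counts moved. Without +6 replicate 3, 8 electron carriers were decreased.

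For CO2 fixation, 6 of the 15 Calvin-Benson cycle mRNAs fell and 1 rose, with a median of −0.69, and 13 of the 15 log2 fold changes were below 0. The decreases were strongest in the enzymes that regenerate the CO2 acceptor, *RPI1* at −1.61, *RPE1* at −1.52, and the transketolase *TRK1* at −1.38. *RBCS2*, for the small subunit of Rubisco, had 7034, 6372, and 6567 FPKM at +6, against 8273, 7880, and 8169 at +2 (log2 fold change −0.28). The exception was *FBP1*, a type II fructose-1,6-bisphosphatase, an activity also used in gluconeogenesis, with 115, 94.3, and 28.8 FPKM at +6, against 2.23, 2.51, and 3.85 at +2. Its log2 fold change was 4.18 with all libraries and 4.79 without +6 replicate 3, the lowest of the +6 libraries. No decrease in this list passed with quantile normalization, where the median was −0.49. The CO2-concentrating mechanism pumps bicarbonate toward Rubisco when CO2 is scarce, as in these air-grown cells. Of its 44 mRNAs, 11 fell and 6 rose, with a median of −0.10, the increases being near the 15.3% of all tested mRNAs. The largest decreases were in the carbonic anhydrases *CAH2* of the periplasm, with 17.1, 16.3, and 23.3 FPKM at +6 and 152, 183, and 202 at +2, and *CAH3* of the thylakoid lumen, with 19.1, 17.3, and 24.8 FPKM at +6 and 137, 136, and 137 at +2. The abundant bicarbonate transporter mRNAs were not called. *HLA3* had 2489, 2434, and 2483 FPKM at +6, against 3222, 2546, and 2588 at +2 (log2 fold change −0.17 ± 0.23), and *LCI1* had 1459, 1581, and 1454 FPKM at +6, against 2140, 1640, and 1991 at +2 (log2 fold change −0.35 ± 0.29). *LCI34* rose most, to 151, 141, and 93.8 FPKM at +6, against 4.11, 2.43, and 2.65 at +2. Photorespiration salvages the product of the oxygenase reaction of Rubisco. Of 12 mRNAs, 3 fell, the serine hydroxymethyltransferases *SHMT2* and *SHMT3* and the transaminase *AGT1*, at −2.03, −2.26, and −1.95. The serine-glyoxylate aminotransferase *SGA1* rose, with 139, 140.2, and 136 FPKM at +6, against 32.6, 29.2, and 25.8 at +2. The other 2 increases on this list, *GOX1* and *PGP1*, are by their descriptions a glyoxal oxidase and a phosphatidylglycerolphosphate synthase, matched by symbol and not enzymes of the pathway. The call of *GOX1*, at 1.06, was lost with quantile normalization, at 0.997, without +6 replicate 2, at 0.97, and without +2 replicate 3, at 0.93.

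Pigment synthesis fell. Of 29 tetrapyrrole and chlorophyll mRNAs, 15 fell and 2 rose, with a median of −1.02, and summed FPKM was 5632, 5106, and 6824 in the +6 libraries, against 11994, 12294, and 11446 in the +2 libraries. *GSA1*, which makes the precursor 5-aminolevulinate, had 266, 214, and 322 FPKM at +6, against 956, 948, and 892 at +2, and *CHLG1*, the last enzyme of chlorophyll synthesis, changed by −1.72. *PCYA1*, a bilin reductase, had the lowest value of the list, −2.03. The 2 increases were *HMOX2*, a heme oxygenase, with 17.0, 17.8, and 16.4 FPKM at +6 and 0.465, 1.04, and 0.669 at +2, and *PBGD2*, described as a porphobilinogen deaminase, with 8.02, 7.79, and 8.60 FPKM at +6 and 0.0226, 0.0152, and 0.0243 at +2. Many of the decreases were close to the threshold, and 5 passed with quantile normalization. Carotenoid synthesis had 10 of 17 decreased and 1 increased, with a median of −1.68. *CYP97C3* and *CYP97A5*, cytochromes P450 of the family that hydroxylates carotenes to lutein, both fell. *CYP97C3* had 4.35, 4.24, and 9.32 FPKM at +6, against 132, 134, and 122 at +2, and *CYP97A5* had 10.9, 6.84, and 10.2 FPKM at +6, against 105, 108, and 116 at +2. The ketolase *BKT1* changed by −3.71. The increase was that of *CVDE1*, the violaxanthin de-epoxidase that makes the photoprotective zeaxanthin, with 54.9, 53.3, and 50.7 FPKM at +6, against 24.0, 19.9, and 18.2 at +2.

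Of 13 photoprotection mRNAs tested, 8 fell and 2 rose, with a median of −1.40. With a pseudocount of 0.01 the median was −2.37 and 7 fell. The decreases were led by early light-induced proteins, relatives of the antenna proteins made when thylakoids are assembled or stressed. *ELIP5* had 12.0, 8.34, and 12.2 FPKM at +6, against 182, 184, and 168 at +2, *ELIP9* a log2 fold change of −4.15, and *ELIP7* one of −3.68. The increases were the *LHCSR3* genes, whose product dissipates excess light energy as heat. *LHCSR3B* (Cre08.g367400) had 316, 334, and 339 FPKM at +6, against 146, 95.0, and 79.5 at +2 (log2 fold change 1.66 ± 0.24, adjusted *p* = 1.47e-07), and *LHCSR3A* had 195, 182, and 189.7 FPKM at +6, against 114, 81.7, and 74.0 at +2. The copies are near-identical, and the call of *LHCSR3A* was lost without +2 replicate 3, at 0.96.

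Central carbon metabolism was mostly higher at +6. Of 40 mRNAs for the tricarboxylic acid cycle, the glyoxylate cycle, and gluconeogenesis, 26 rose and 4 fell, with a median of 1.61. *ICL1* (Cre06.g282800), the isocitrate lyase that defines the glyoxylate cycle, had 1157, 837, and 594 FPKM at +6, against 53.2, 36.0, and 31.9 at +2 (log2 fold change 4.37 ± 0.22, adjusted *p* = 7.65e-19). *PCK1*, which forms phosphoenolpyruvate for gluconeogenesis, had 385, 263, and 134 FPKM at +6, against 9.64, 10.9, and 11.7 at +2. In both, +6 replicate 3 was the lowest of the 3, still above every +2 library. *SCLA1*, a succinyl-CoA ligase subunit, had 113, 112, and 92.5 FPKM at +6, against 4.56, 5.17, and 3.53 at +2. The decreases were the pyruvate kinases *PYK1* at −2.21 and *PYK5* at −1.96, the pyruvate carboxylase *PYC1* at −2.49, and 1 further member. In the respiratory chain, 36 of 98 mRNAs rose and 2 fell, with a median of 0.23. *SDH4*, a membrane anchor of succinate dehydrogenase, rose most, with 64.8, 63.1, and 51.2 FPKM at +6, against 7.10, 6.67, and 5.18 at +2. *AOX1*, the alternative oxidase, and *SDH3*, the other anchor, rose by 2.79 and 2.76. An abundant member, *QCR9* of the cytochrome bc1 complex, had 2277, 2250, and 2284 FPKM at +6, against 1858, 1882, and 1911 at +2 (log2 fold change 0.27). The 2 decreases were *ATP1B* and *NUOAF4*, at −1.54 and −1.51.

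Fermentation, by which *Chlamydomonas* makes H2, acetate, formate, and ethanol without oxygen, had 10 of 19 mRNAs increased and 1 decreased, with a median of 1.47. Summed FPKM was 699, 658, and 601 in the +6 libraries, against 109, 111, and 107 in the +2 libraries. *ADH1* (Cre17.g746997), the alcohol and acetaldehyde dehydrogenase of ethanol production, had 256, 244, and 243 FPKM at +6, against 7.0, 7.58, and 5.93 at +2 (log2 fold change 4.99 ± 0.15, adjusted *p* = 3.51e-25). The phosphate acetyltransferase *PAT2* and the pyruvate decarboxylase *PDC3* rose by 3.56 and 3.50. The decrease was in *HYD3*, described as an iron hydrogenase or prelamin A binding protein, at −1.26.

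Starch mRNAs were mostly higher at +6, with 14 of 34 increased, 5 decreased, and a median of 0.76. Isoforms of one enzyme moved in opposite directions. The starch synthase *SSS1B* had 93.5, 94.5, and 83.2 FPKM at +6, against 15.2, 15.8, and 14.0 at +2, while *SSS1A* had 0.550, 0.418, and 0.897 FPKM at +6, against 12.0, 12.4, and 13.1 at +2. *SSS4* changed by −1.78. *AGP2*, a large subunit of the ADP-glucose pyrophosphorylase that commits carbon to starch, had 13.4, 15.4, and 12.3 FPKM at +6, against 0.184, 0.110, and 0.243 at +2. The degrading enzyme *AMA3*, an alpha-amylase, rose as well, at 3.12. In fatty acid and lipid synthesis, 17 of 48 mRNAs fell and 5 rose, with a median of −0.61. *ACP2*, the acyl carrier protein on which fatty acids are built, had 770.4, 744, and 1212 FPKM at +6, against 4326, 4413, and 4388 at +2, and *MGD1*, which makes the main thylakoid galactolipid, changed by −2.19. The increases included genes of storage lipid. *MLDP1*, the major lipid droplet protein, had 42.6, 38.9, and 25.4 FPKM at +6, against 3.64, 2.70, and 2.60 at +2, and the acyltransferases *PDAT1* and *DGAT1*, which form triacylglycerol, rose by 2.92 and 1.77. With quantile normalization 8 of the decreases in this list passed.

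Redox mRNAs changed in both directions, with 16 of 55 increased and 14 decreased. Their median was −0.14, and 0.01 with quantile normalization, where 17 rose and 7 fell. *NTR2*, a thioredoxin reductase, had the largest log2 fold change of the list, with 46.8, 48.5, and 38.0 FPKM at +6, against 0.230, 0.485, and 0.335 at +2 (log2 fold change 5.07 ± 0.11, adjusted *p* = 7.16e-29). *TRXH2*, the cytosolic thioredoxin h2, had 81.3, 94.5, and 72.5 FPKM at +6, against 4.15, 4.34, and 3.60 at +2. *MSD1*, a manganese superoxide dismutase that removes superoxide, had 642, 651, and 593 FPKM at +6, against 53.5, 41.5, and 36.3 at +2. Other redox genes fell. *GRX6*, a chloroplast glutaredoxin, had 11.2, 6.25, and 13.8 FPKM at +6, against 201, 197, and 202 at +2. *VTC2*, which commits carbon to ascorbate synthesis, had 3.56, 3.55, and 2.59 FPKM at +6, against 34.3, 35.5, and 32.8 at +2, and *GSR2*, a glutathione reductase, changed by −1.98.

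Several nutrient genes differed between replicates. Of 63 sulfur and phosphorus mRNAs, 18 rose and 11 fell, with a median of 0.18, and 13 rose and 10 fell without +6 replicate 3. The share that fell was near the 14.5% of all tested mRNAs. The sulfate uptake transporter *SULTR2* (Cre17.g723350), known from sulfur starvation, had 327, 331, and 793 FPKM at +6, against 65.7, 58.5, and 93.8 at +2. *SLT2*, a sodium/sulfate co-transporter, had 52.2, 52.7, and 166 FPKM at +6, against 6.66, 6.72, and 8.33 at +2. *ATS2*, an ATP sulfurylase, which activates sulfate, had 132, 142, and 240 FPKM at +6, against 10.9, 10.9, and 11.5 at +2. In each of these, +6 replicate 3 was the highest library, and the other +6 libraries also lay above all +2 libraries. The log2 fold changes of *SULTR2*, *SLT2*, and *ATS2* were 2.62, 3.25, and 3.78 with all libraries and 2.19, 2.71, and 3.51 without it. *SBD1*, a selenium-binding protein, showed the same unevenness, with 141, 143, and 388 FPKM at +6, against 2.41, 2.60, and 2.16 at +2, and a log2 fold change of 5.88, or 5.40 without that library. The summed FPKM of the list was 2860, 2909, and 4705 in the +6 libraries, against 1827, 1819, and 1981 in the +2 libraries. The transporter *SULTR1* went the other way, with 2.74, 3.17, and 1.29 FPKM at +6 and 28.0, 30.5, and 28.5 at +2, and so did the phosphate transporters *PTB4* and *PHT4C*, at −2.39 and −2.47. What set +6 replicate 3 apart was not tested.

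**Figure D3:**
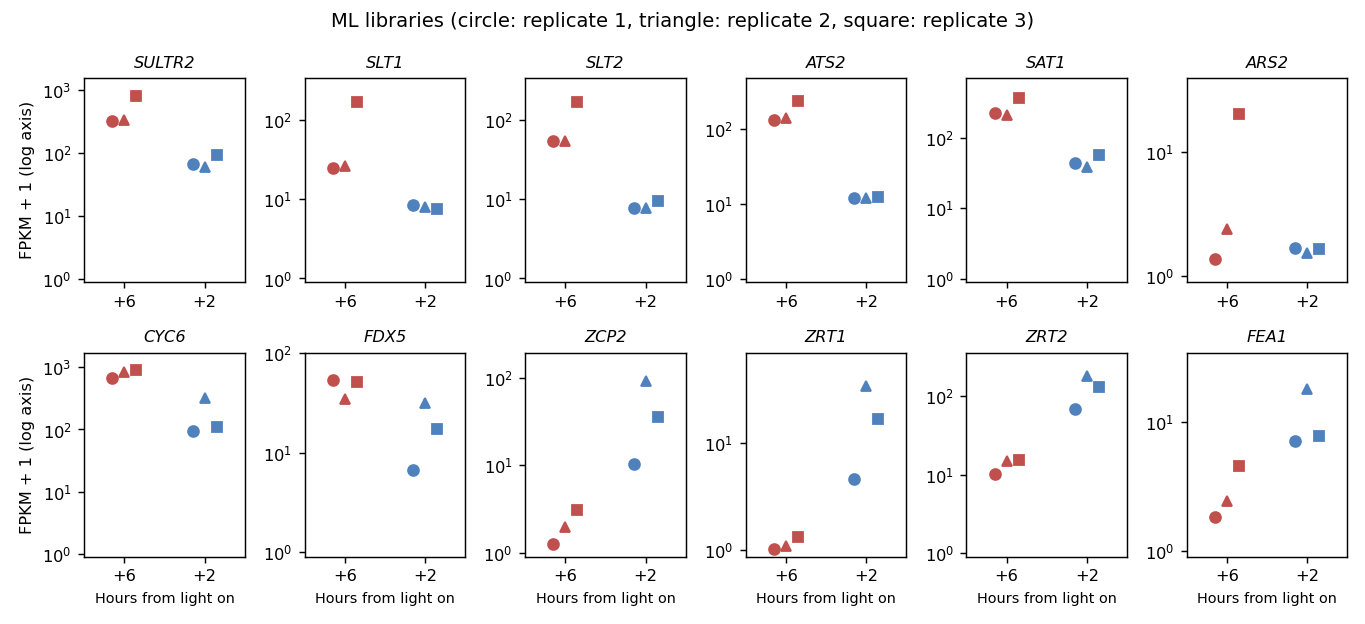
FPKM + 1 on a log axis in each ML library for 6 sulfur genes and 6 metal genes, with +6 left of +2 and replicate 1 as circles, replicate 2 as triangles, and replicate 3 as squares. *SLT1*, *SAT1*, *ARS2*, and *FEA1* were added after their values were seen. The +6 square stands highest in *SULTR2*, *SLT2*, and *ATS2*, and the +2 triangle highest in *CYC6*, *FDX5*, *ZCP2*, and *ZRT1*.

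Metal homeostasis had 12 of 43 mRNAs decreased and 6 increased, with a median of −0.42. The share decreased lay above the 14.5% of all tested mRNAs, and the share increased was near the 15.3%. The 3 largest decreases were zinc-nutrition genes. *ZRT2*, a zinc transporter, had 9.18, 13.9, and 14.4 FPKM at +6, against 69.0, 181, and 131 at +2. *ZRT1*, of the same family, had 0.0242, 0.0798, and 0.315 FPKM at +6, against 3.57, 33.4, and 15.7 at +2. *ZCP2*, a zinc chaperone, had 0.270, 0.992, and 2.07 FPKM at +6, against 9.43, 90.6, and 34.5 at +2. Copper-nutrition genes were among the increases. *CYC6* (Cre16.g651050), the heme protein that replaces plastocyanin when copper is scarce, had 681, 831, and 892 FPKM at +6, against 93.1, 325, and 108 at +2, and *FDX5*, a ferredoxin gene that also responds to copper, had 52.3, 33.4, and 50.9 FPKM at +6, against 5.63, 30.7, and 16.2 at +2. The +2 libraries differed most here: replicate 2 was the highest and replicate 1 the lowest in each of these genes. The timepoints did not overlap in any of the 5, which held for 72.2% of all tested mRNAs and for nearly all called ones. In *FDX5* the gap was narrow, 33.4 FPKM at +6 against 30.7 at +2. Without +2 replicate 2 the log2 fold changes were −2.95 for *ZRT1*, −3.28 for *ZCP2*, 2.97 for *CYC6*, and 2.10 for *FDX5*, against −3.61, −4.03, 2.41, and 1.57 with all libraries. Without +2 replicate 1 they were −4.40 for *ZRT1* and −4.85 for *ZCP2*. The log2 fold change of *ZRT2* was −2.86 without +2 replicate 2 and lay between −3.55 and −2.86 with each library left out. In the whole list, 11 mRNAs fell and 6 rose without +2 replicate 2, with a median of −0.30. The call of *FDX5* was lost without +2 replicate 1, at 0.97, with a pseudocount of 0.1 or 0.01 (limma adjusted *p* = 0.0341 and 0.245), and when only the 6 compared libraries were fitted (adjusted *p* = 0.0409). *FER1*, for the iron store ferritin, had 97.4, 102, and 105 FPKM at +6, against 77.2, 89.2, and 90.8 at +2 (log2 fold change 0.24).

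Of 33 nitrogen assimilation mRNAs, 6 rose and 6 fell, with a median of −0.15, counts near the 15.3% and 14.5% of all tested mRNAs. Among mRNAs with a mean FPKM of at least 5, 5 rose and 3 fell. The glutamate dehydrogenases *GDH2* and *GDH1* rose, *GDH2* with 37.1, 38.2, and 40.4 FPKM at +6 and 2.86, 3.03, and 4.09 at +2. Glutamine synthetase and glutamate synthase form the main route of ammonium assimilation. *GLN3*, a glutamine synthetase, had 14.7, 12.2, and 21.2 FPKM at +6, against 178, 181, and 209 at +2, and the ferredoxin-dependent glutamate synthase *GSF1* changed by −1.64. The asparagine synthase *ASN1* had 44.7, 45.9, and 42.9 FPKM at +6, against 337, 339.8, and 338 at +2. A different glutamine synthetase, *GLN1*, rose by 1.07.

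Genes of DNA replication were mostly higher at +6, although at low FPKM. Of 38 DNA replication mRNAs, 27 rose and 1 fell, with a median of 1.69. With a pseudocount of 0.1 the median was 3.11 and 33 rose, and with 0.01 it was 3.61. Their summed FPKM was 392, 406, and 324 in the +6 libraries, against 90.7, 85.4, and 90.4 in the +2 libraries. *MCM6* (Cre03.g178650), a subunit of the helicase that opens replication origins, had 27.7, 25.9, and 17.1 FPKM at +6, against 0.393, 0.209, and 0.247 at +2 (log2 fold change 4.23 ± 0.26, adjusted *p* = 9.18e-17). *PCN1*, the sliding clamp of DNA polymerase, had 46.2, 55.9, and 43.9 FPKM at +6, against 3.35, 2.66, and 3.02 at +2. The decrease was in *RIR2L*, a ribonucleotide reductase-like subunit, at −1.10, and did not pass with quantile normalization, at −0.84. Of 43 cell cycle mRNAs, 15 rose and 1 fell, with a median of 0.46. The D-type cyclins, which act upstream of S phase in land plants, moved in both directions. *CYCD4* had 28.6, 25.9, and 27.7 FPKM at +6, against 0.656, 0.499, and 0.400 at +2, while *CYCD1* had 0.597, 1.08, and 0.927 FPKM at +6, against 5.83, 6.35, and 5.37 at +2. *APC11*, of the anaphase-promoting complex, rose by 3.90 and *CKS1*, a partner of cyclin-dependent kinases, by 2.78. Of 118 histone genes 33 passed the minimum on FPKM and none was called in either direction by limma, with 1 higher and 1 lower at an unadjusted *p* below 0.05. Their summed FPKM was 15.6, 26.8, and 24.4 in the +6 libraries, against 29.5, 26.7, and 26.7 in the +2 libraries. Histone genes are near-identical copies, so single values are uncertain. The libraries hold poly(A) RNA, so any histone mRNA without a poly(A) tail would be missed, and these values cannot show its change. All 5 tubulin mRNAs had log2 fold changes above 0 and 3 rose, led by gamma tubulin, *TUG1*, with 9.10, 11.6, and 8.58 FPKM at +6 and 0.586, 0.721, and 0.351 at +2.

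Few genes were called in the smaller ciliary lists. Intraflagellar transport and BBSome genes, which carry cargo along the cilium, had 3 of 38 increased and 3 decreased, dyneins 3 of 49 increased and 1 decreased, and radial spokes 1 of 23 decreased. These shares lie below the 15.3% and 14.5% of all tested mRNAs. Flagellar associated proteins, a broad set defined in proteomic studies, had 59 of 333 decreased and 12 increased, with a median of −0.35. Their share decreased lay above the 14.5% of all tested mRNAs, and their share increased below the 15.3%. With a pseudocount of 0.1 the counts were 95 decreased and 25 increased. *FAP310* had 14.1, 14.9, and 16.7 FPKM at +6, against 129.9, 138, and 152 at +2, and *FAP277* moved the other way, with 50.5, 59.95, and 46.9 FPKM at +6, against 6.51, 5.90, and 4.24 at +2. Of the pherophorins and other cell wall genes, 19 of 62 fell and 3 rose, with a median of −0.46. *PHC3* had 330.2, 305, and 359 FPKM at +6, against 1071, 1136, and 1208 at +2. *MMP21*, a matrix metalloproteinase, had 2.06, 1.95, and 2.56 FPKM at +6, against 20.2, 20.6, and 26.6 at +2. *PHC18* varied between replicates, with 0.352, 1.13, and 4.31 FPKM at +6, against 8.70, 42.7, and 133 at +2, and its log2 fold change of −3.95 was −4.95 without +2 replicate 1 and −3.05 without +2 replicate 3. Its call was lost when only the 6 compared libraries were fitted (limma adjusted *p* = 0.0114). Among clock and photoreceptor genes, 6 of 17 fell and none rose by the thresholds of limma, with 3 higher and 9 lower at an unadjusted *p* below 0.05. *ROC59*, a clock gene, changed by −2.71, the cryptochromes *DCRY1* and *ACRY1* by −2.64 and −2.23, and the opsin gene *COP21* had 242, 227, and 307 FPKM at +6, against 1030, 1038, and 1007 at +2.

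The 5 timepoints of the ML population show where this pair lies in the day. Of the 2227 increased mRNAs, 949 (42.6%) had their highest mean FPKM at +6, 632 (28.4%) at +10, 510 (22.9%) at −10, and 136 (6.11%) at −2, and 1417 (63.6%) had their lowest at +2. Of the 2115 decreased mRNAs, 1512 (71.5%) were highest at +2 and 385 (18.2%) at −10, and 967 (45.7%) were lowest at +6. These shares use the libraries that made the calls and describe the course only. Chloroplast ribosomal proteins summed to 9759 FPKM at −2, 41082 at +2, 3276 at +6, 1476 at +10, and 4381 at −10, highest at +2. Ribosome biogenesis had a different day, with 1836, 2265, 426, 632, and 2391 FPKM, high at −10 and −2 as well. The antenna sum peaked at +6, with 7255, 30987, 78375, 27589, and 4727 FPKM. The proteasome stayed high until +10, with 619, 928, 2401, 2287, and 483 FPKM. DNA replication mRNAs summed to 202, 88.9, 374, 2616, and 109 FPKM, highest at +10. Central carbon mRNAs (9174, 3008, 5868, 3005, and 11430 FPKM) and fermentation mRNAs (923, 109, 653, 502, and 1852 FPKM) had their highest sums at −10 and −2, with a lower maximum at +6.

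**Figure D4:**
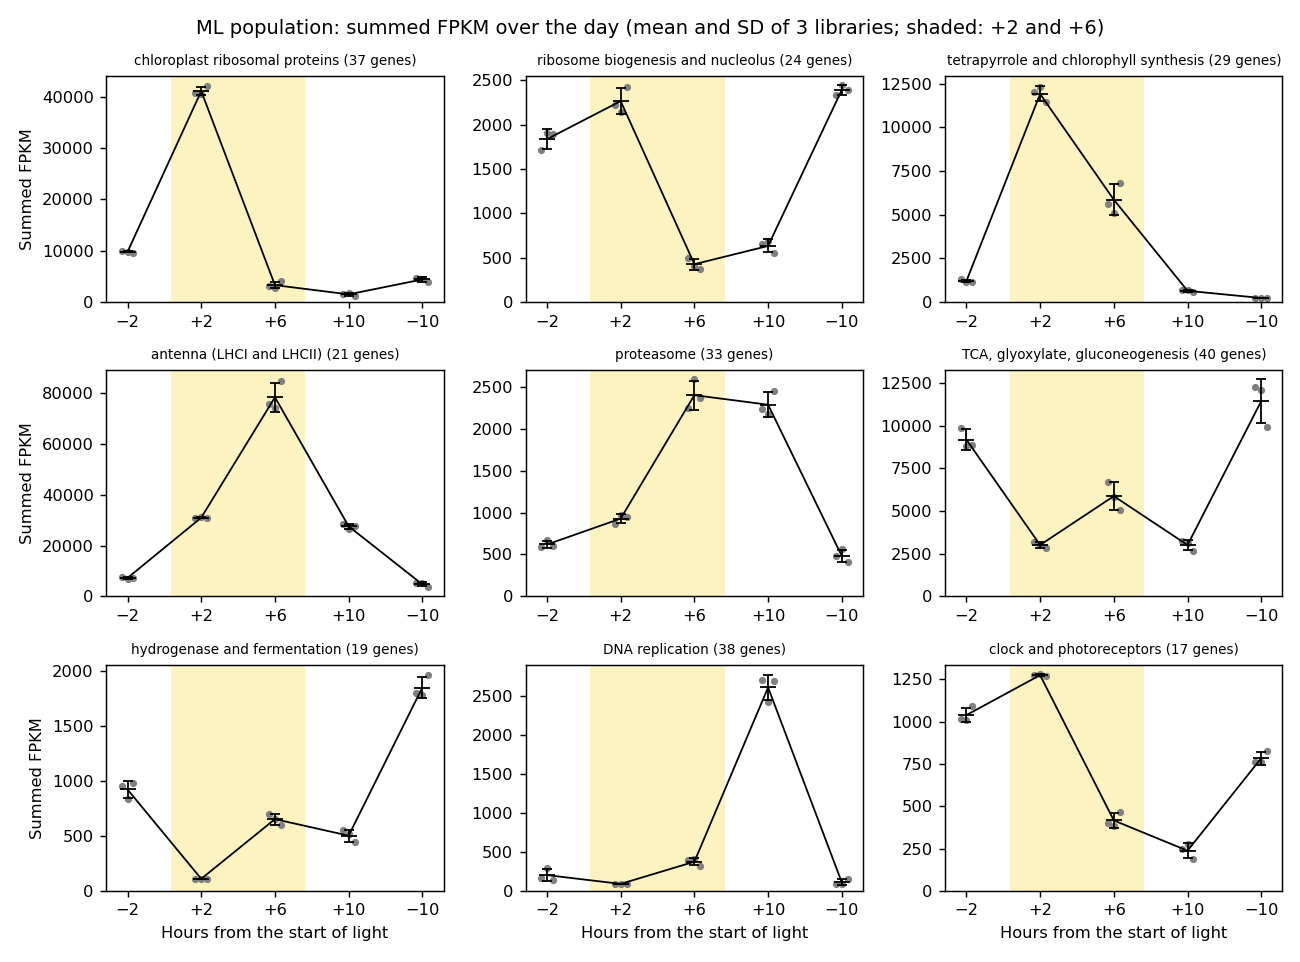
Summed FPKM of 9 gene lists in the ML population at the 5 timepoints, as the mean of 3 libraries with the SD as error bars. The shaded band marks +2 and +6, between which the chloroplast ribosomal protein sum falls to 3276 at +6, against 41082 at +2, and the antenna sum rises to 78375 at +6, against 30987 at +2.

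The same pair of timepoints was compared in the other populations, whose libraries are independent of those of the ML population. At +6 relative to +2, 1493 mRNAs (10.2% of those tested) were increased and 1443 (9.88%) decreased in LL, 20.1% in either direction. In HL, 1448 (9.92%) were increased and 1430 (9.79%) decreased, 19.7% in either direction. Both totals are below the 29.7% of ML. Of the ML increases, 1206 were also called in LL (54.2% of the ML list and 80.8% of the LL list) and 1193 in HL (53.6% and 82.4%). Of the ML decreases, 1157 were also called in LL (54.7% and 80.2%) and 1187 in HL (56.1% and 83.0%). Calls in the opposite direction were few: 13 of the ML increases and 7 of the decreases in LL, and 19 and none in HL. Across the 14602 mRNAs, which are not independent replicates, the changes in ML correlated with those in LL at a Pearson's *r* of 0.825 and with those in HL at 0.857. The ML increases had a median log2 fold change of 1.08 in LL, 1.60 in ML, and 1.08 in HL, and the decreases −1.09, −1.67, and −1.09. The mRNAs were chosen by their ML change, which favours larger values there, so these medians are a description only.

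The difference of the change itself was tested as an interaction term in the same model. HL minus ML passed the thresholds for 1199 mRNAs (8.21% of those tested), with the HL change above that of ML in 588 (4.03%) and below it in 611 (4.18%). LL minus ML passed for 1480 (10.1%), with 707 (4.84%) above and 773 (5.29%) below. Both differences use the same 6 ML libraries. The chloroplast ribosomal proteins were called in the same number in all populations, 35 of 37 decreased in LL, in ML, and in HL, and *PRPS6* changed by −4.19 in LL, −4.40 in ML, and −3.62 in HL. Ribosome biogenesis differed: 1 of 24 mRNAs fell in LL, 20 in ML, and 5 in HL, and the LL change lay above the ML change in 18 and the HL change above it in 16. *NOP56* changed by −0.76 in LL, −2.90 in ML, and −1.09 in HL (LL minus ML 2.14 ± 0.17, HL minus ML 1.80 ± 0.17). RNA polymerases I and III followed, with 0 decreased in LL by limma (6 of 9 lower at an unadjusted *p* below 0.05), 8 in ML, and 1 in HL, and 5 of 9 differences passed in each test. Translation factors had 7 decreased in LL, 24 in ML, and 7 in HL, of which the LL change lay above that of ML in 12 and the HL change in 4.

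Proteasome mRNAs were called less in HL, with 30 of 33 increased in LL, 30 in ML, and 1 in HL. The test of the difference passed for 3 of them in HL minus ML, among them *RPN10*, whose change was 1.81 in LL, 1.94 in ML, and 0.72 in HL (HL minus ML −1.21 ± 0.16, adjusted *p* = 2.41e-07). For the other 30 members the difference did not pass. At an unadjusted *p* below 0.05, the HL change lay below the ML change in 29 of the 33 and above it in 0, and 32 of the 33 were higher at +6 in HL. The median change was 0.67 in HL, against 1.40 in ML. *ADH1* had the same order, 4.55, 4.99, and 1.82 in LL, ML, and HL, and its HL minus ML difference of −3.17 ± 0.21 passed. Central carbon metabolism had 13 of 40 increased in LL, 26 in ML, and 16 in HL. The LL change lay below the ML change in 15 and the HL change in 10. *ICL1* and *PCK1* changed by 0.69 and 0.82 in LL, 4.37 and 4.36 in ML, and 4.61 and 4.25 in HL, and only the LL minus ML differences, −3.68 ± 0.31 and −3.54 ± 0.34, passed. For the antenna, 4 of 21 rose in LL, 9 in ML, and 9 in HL, and the LL change lay below that of ML in 7, such as *LHCBM5* with 0.94 in LL, 3.75 in ML, and 4.11 in HL. Tetrapyrrole mRNAs fell in 20 of 29 in LL, 15 in ML, and 9 in HL, with the LL change below that of ML in 14. Sulfur and phosphorus mRNAs rose in 9 of 63 in LL, 18 in ML, and 7 in HL. Their change lay below that of ML in 14 for LL and in 16 for HL, and in 10 and 16 without +6 replicate 3 of ML. *SGA1* rose in ML at 2.21 and changed by −0.10 in LL and 0.30 in HL, and both differences, −2.31 ± 0.14 and −1.92 ± 0.14, passed.

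**Figure D5:**
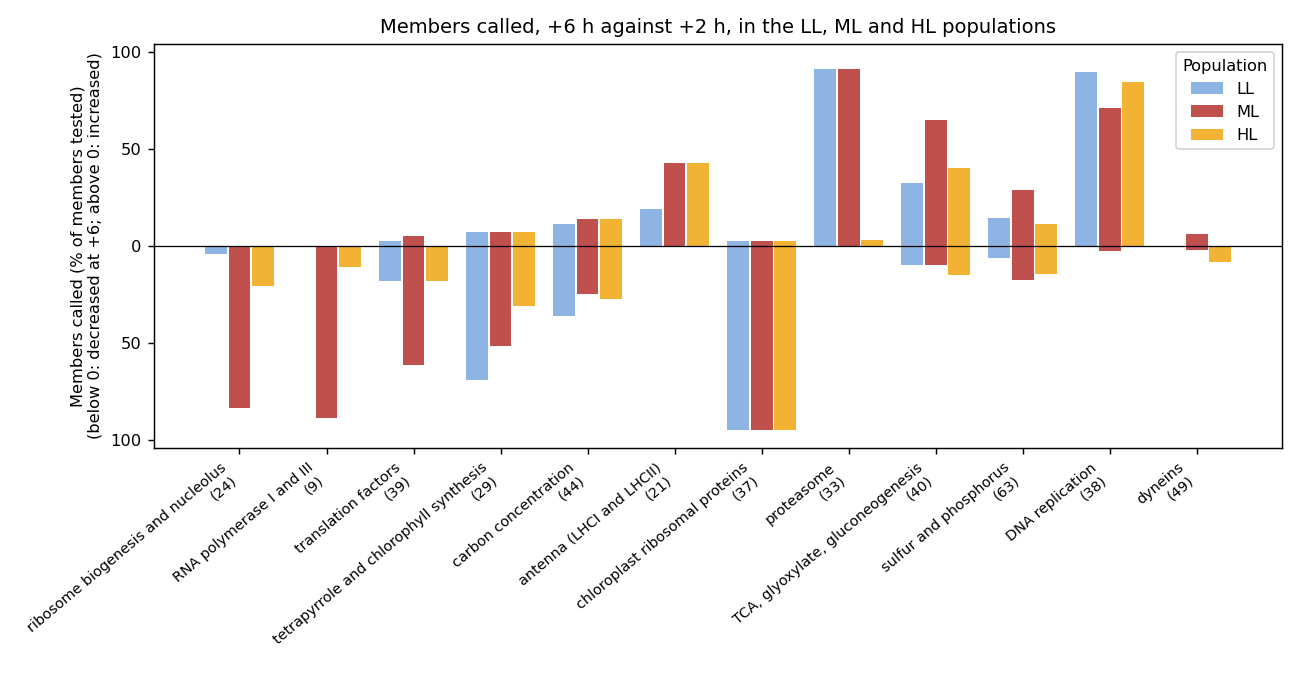
Percentage of members called increased or decreased at +6 relative to +2 in the LL, ML, and HL populations for 12 gene lists. Chloroplast ribosomal proteins reach 35 of 37 decreased in each population, while ribosome biogenesis reaches 1 of 24 in LL, 20 in ML, and 5 in HL, and the proteasome 30 of 33 increased in LL, 30 in ML, and 1 in HL.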

How the data were processed

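RNA-seq libraries of poly(A) RNA from 45 samples (3 populations, 5 timepoints, 3 replicates) were analysed, of which 6, ML at +6 and +2, form the comparison. Per the labels and the methods of the study, the authors aligned reads with STAR 2.4.0j and obtained FPKM values with Cuffdiff 2.0.2 on version 6.1 of the CC-4532 gene models, and deposited the FPKM per library. The authors tested counts with DESeq2; the table used here holds FPKM, so limma (version 3.58.1, R 4.3.3) was fitted with a trend to log2(FPKM + 1), in 1 model of 15 group means over all 45 libraries, for the 14602 of 17609 genes that reached an FPKM of 1 in 3 or more libraries. Thresholds, an absolute log2 fold change above 1 and an adjusted *p* below 0.01, follow the methods. Differences between populations were interaction contrasts in the same model. All columns were mapped to samples by name, with 0 left over. The authors' table of means was not used. Relative depth was taken from the most common ratio, counted with its simple multiples, to +2 replicate 1 among genes with a mean FPKM below 0.5. At that ratio itself lay 25 of 695, 30 of 749, and 50 of 860 such genes in the +6 libraries, so the depths are rough. Precision is otherwise the replicate spread.

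The comparison, the 39 gene lists (built from symbols and descriptions), and the tests were chosen with earlier results of these data known. Named genes are the 15 largest changes each way without overlap between libraries, the 10 largest each way with a symbol, up to 3 called members each way per list, up to 3 abundant members of lists mostly not called, and the 4 largest differences between populations. *PSRP4* was named after its value was seen. List counts and medians carry no test. The model was refitted with a pseudocount of 0.1 or 0.01, without the filter, for mRNAs with a mean FPKM of 5 or more, without the trend, and with a replicate block, median scaling, quantile normalization, fewer libraries, an adjusted *p* of 0.05, or each library left out. Tested on simulated data for this comparison, the model called 194 of 200 changed genes and 0 of 14348 unchanged ones. The changed genes were drawn only from well-expressed ones and given changes beyond the fold threshold. The simulated noise was normal and independent between libraries. These rates therefore do not carry over to scarce mRNAs, to changes near the threshold, or to mRNAs with a deviating library. Gene models matching the reference at hand differ in version, so no coordinates or sequences are given. Figures used matplotlib 3.10.9 under Python 3.11.15.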

Additional observations from a re-analysis of the deposited data

Results flagged for a closer look

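The change between +2 and +6 differed between populations by the test of the difference, for 1199 mRNAs in HL minus ML and 1480 mRNAs in LL minus ML. The mRNAs with a symbol and the largest such differences are given here by their values, and no cause was tested. Both differences share the 6 ML libraries.

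In HL minus ML the 4 largest differences were all below 0. *PFH3*, a prolyl 4-hydroxylase, differed by −4.59 on the log2 scale: its change was 0.18 in ML, where +2 replicates ranged from 8.60 to 40.6 FPKM, and −4.42 in HL, with 6.24 ± 0.90 FPKM at +6 and 154 ± 21.2 at +2 (mean ± SD, n = 3). *SLT2* differed by −4.47, with 26.3 ± 2.83 FPKM at +6 and 68.5 ± 39.5 at +2 in HL, against 90.2 ± 65.3 at +6 and 7.24 ± 0.95 at +2 in ML, and by −3.92 without +6 replicate 3 of ML. *SELW2*, a selenoprotein, differed by −4.38 at low FPKM, and it was listed at 0 in 2 of the HL +6 libraries and in 1 of the ML +2 libraries. *CYC6* differed by −4.05, with 123 ± 22.8 FPKM at +6 and 389.7 ± 112 at +2 in HL, against 801 ± 109 at +6 and 176 ± 129.8 at +2 in ML, and by −4.61 without +2 replicate 2 of ML.

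In LL minus ML, *LHCBM9* differed by −6.31, with 7.34 ± 0.91 FPKM at +6 and 20.5 ± 8.31 at +2 in LL, against 72.8, 79.3, and 729.8 at +6 and 5.50, 2.69, and 4.32 at +2 in ML. In HL its +6 values were 77.5, 143, and 791, again with 1 high replicate. Without +6 replicate 3 of ML the LL minus ML difference of *LHCBM9* was −5.23 and that of *CDO1* −3.89. *LHCSR3B* and *LHCSR3A* differed by −4.44 and −4.20. *LHCSR3B* had 21.9 ± 4.34 FPKM at +6 and 162 ± 61.3 at +2 in LL, against 329.7 ± 12.0 at +6 and 107 ± 34.7 at +2 in ML, so the direction was opposite. *LHCSR3A* had 12.3 ± 2.18 FPKM at +6 and 117 ± 39.7 at +2 in LL, against 189 ± 6.23 at +6 and 90.1 ± 21.5 at +2 in ML. *CDO1*, a cysteine dioxygenase described as regulated by copper nutrition, differed by −4.20, with 1.78 ± 0.53 FPKM at +6 and 3.66 ± 1.80 at +2 in LL, against 31.5 ± 13.2 at +6 and 1.67 ± 0.16 at +2 in ML.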

How the results depend on the processing

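The ML counts of 2227 increased and 2115 decreased mRNAs were 3159 and 2656 with a pseudocount of 0.1, 3186 and 2669 with 0.01, 1496 and 1586 for mRNAs with a mean FPKM of at least 5, and 2047 and 1917 with quantile normalization, under which 88.8% and 86.7% of the calls remained and none was opposite. The HL count of 1448 increased mRNAs was 2203 and 2199 with the smaller pseudocounts and 941 with the stricter minimum, where fewer mRNAs were tested. With each library left out in turn, the ML counts were 2176 to 2287 increased and 2095 to 2151 decreased, those of HL 1388 to 1484 and 1390 to 1460, and those of LL 1436 to 1541 and 1418 to 1479. The differences HL minus ML and LL minus ML then passed for 1097 to 1255 and 1352 to 1570 mRNAs. Samples of the 2 timepoints share replicate numbers. Same-numbered ML libraries deviated together with correlations of 0.0917, 0.0695, and 0.135 across genes, each higher than with the other numbers. In HL they were −0.0364, −0.0233, and 0.12 and in LL 0.143, 0.02, and 0.225. Replicates 1 and 2 of HL and replicate 2 of LL correlated better with another number. Correlations this weak cannot settle whether the numbers pair the libraries. By the methods a replicate was an independent experiment with its own culture, so same-numbered libraries may share a culture. The main fit did not pair them. With the replicate block the counts were 2231 and 2116 in ML, 1446 and 1433 in HL, and 1492 and 1449 in LL, and the differences passed for 1207 and 1476 mRNAs. The block lost none of the 208 calls among the 248 named mRNAs.

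Of 4202 values of named mRNAs under alternatives, no call changed direction. In 33, from 23 mRNAs, a call was lost, 15 of them with quantile normalization, and in 7 one was gained. For HL and LL only the counts were compared under the alternatives. Among mRNAs with a mean FPKM of at least 5, decreases outnumbered increases, unlike over all tested mRNAs. They were 1152 against 941 in HL and 1124 against 1029 in LL. Depth is known only as a ratio between libraries, and no counting interval is given. Differences in mRNAs near an FPKM of 1 rest on few fragments and on the pseudocount. With 3 cultures per timepoint, leaving 1 out leaves 2, and the spread is then shared with the other groups of the model. FPKM is relative to each library's total, and a change common to all mRNAs does not appear in it.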
